A study of Rattus norvegicus with 34 samples.

Results

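The transcript described here is Mt-cyb, mitochondrial cytochrome b, with the identifier ENSRNOT00000042098.3, which is 1 of the 31196 transcripts quantified in the hippocampus of 34 rats. It was selected on its measured values, because its level differed in opposite directions in the sugar comparison and in the Parabacteroides comparisons. Differences between treatment groups are therefore given as a description without a test, and tests are kept for the label numbers, depth and transcript length, which the choice did not use. The deposited tables list transcripts by identifier alone. The name Mt-cyb came with the choice of the transcript, and no table used here pairs it with the identifier.

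All animals were male Sprague Dawley rats that entered the experiments at postnatal day (PN) 26 to 28, and RNA came from the hippocampus. In the sugar experiment, 7 rats drank an 11% weight-by-volume sugar solution of 65% fructose and 35% glucose beside their water (Sug), and 7 rats had an additional bottle of filtered water instead (Ctl). The labels have this treatment run until PN104. The study states a younger age for the hippocampal tissue of the sugar experiment than for that of the transfer experiment, so the sources differ on the age of these rats. In the transfer experiment, 7 rats were gavaged with saline (Sal_Sal), 6 rats received antibiotics for 7 days and then saline (Abx_Sal), and 7 rats received the same antibiotics and then a 1:1 mix of Parabacteroides distasonis and Parabacteroides johnsonii (Abx_Pb). Gavaged doses were 50 mg/kg for vancomycin and 100 mg/kg each for neomycin and metronidazole, while the drinking water held 1 mg/mL ampicillin, and these 3 groups were followed until PN 83. The bacteria were given to antibiotic-treated rats only, so Abx_Sal is the group that shares the antibiotics with Abx_Pb and Sal_Sal is the group without either. Each value below belongs to 1 rat, and a p-value sets a difference or a correlation against the variation between rats. The tissue is a mixture of neurons, glia and vessels, and in such bulk RNA fewer cells of a type and less RNA per cell cannot be told apart. The hippocampal label and the cell mixture were not checked against marker genes, because transcripts other than Mt-cyb have no names here.

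Cytochrome b is the only subunit of respiratory complex III that is encoded in mitochondrial DNA, and the other subunits come from the nucleus. Complex III passes electrons from ubiquinol to cytochrome c and moves protons across the inner mitochondrial membrane, and cytochrome b holds the b-type hemes and forms much of both quinone sites of that cycle. Mitochondrial DNA is present in many copies per cell and is transcribed as long precursors that are cut into separate messages, so that cytochrome b messages share their origin with those of other respiratory subunits. Neurons depend on this respiratory chain for much of their energy, and mitochondrial messages are among the most abundant RNAs in brain.

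Mt-cyb was among the most abundant transcripts of these libraries. Each library held between 14394530 and 22332725 reads assigned to transcripts, and Mt-cyb took 0.986% ± 0.0964 of them (mean ± SD, n = 34 rats), with 0.804% in the lowest rat and 1.20% in the highest. The transcript is 1143 bases long, which is 381 base triplets. Per kilobase of length, its mean level was 8641 CPM (counts-per-million), against a median of 5.89 over the 20909 transcripts that passed the filter on low counts, and it ranked 7 among them. Salmon, the quantification program used by the authors, can split a read over several transcripts, and every one of the 34 estimated counts for Mt-cyb was within 1e-06 of a whole number.

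Levels are given below as CPM, the reads of Mt-cyb relative to all assigned reads of the rat after TMM scaling, a factor that evens out libraries by their bulk of transcripts. In Ctl rats the lowest level was 8840 CPM, the median was 9777 CPM and the highest was 11242 CPM. In Sug rats the lowest level was 7984 CPM, the median was 8967 CPM and the highest was 10156 CPM. The sugar group lay lower and the groups overlapped, with 2 of 7 Sug rats below every Ctl rat, 2 of 7 Ctl rats above every Sug rat, and 6 of 7 Sug rats below the Ctl median. In Sal_Sal rats the lowest level was 8965 CPM, the median was 9647 CPM and the highest was 10580 CPM. In Abx_Sal rats the lowest level was 7928 CPM, the median was 9558 CPM and the highest was 11907 CPM. Antibiotics followed by saline gave a median close to that of saline and the widest spread of the 5 groups, with 1 rat above and 1 rat below every Sal_Sal rat. In Abx_Pb rats the lowest level was 9175 CPM, the median was 10943 CPM and the highest was 12219 CPM. Here 6 of 7 rats were above every Sal_Sal rat, 1 of 7 was above every Abx_Sal rat, and 6 of 7 were above the median of either control group. Ranked over the 34 rats, the 10 highest levels came from 6 Abx_Pb, 2 Ctl, 1 Sal_Sal and 1 Abx_Sal rats, and the 10 lowest included 5 Sug rats and 1 Abx_Pb rat.

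**Figure D1:**
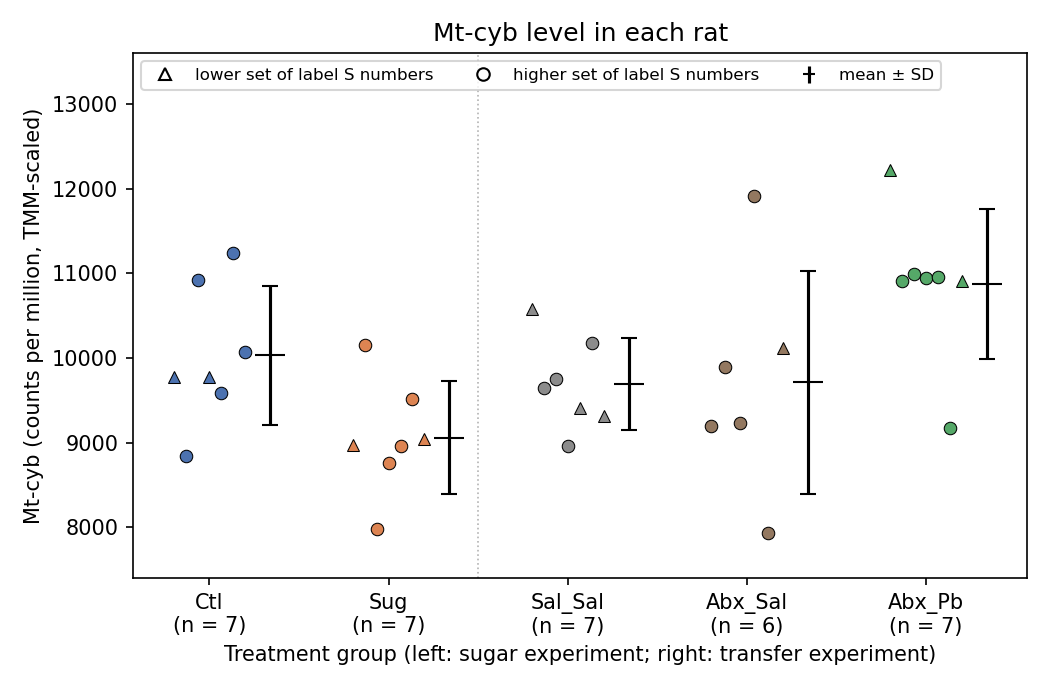
Mt-cyb level in each rat, in TMM-scaled CPM, by treatment group. Triangles and circles are rats with lower and higher S numbers in their sample labels, and the bars are the mean ± SD. Sug rats sit between 7984 and 10156 CPM, and 6 of 7 Abx_Pb rats sit above all Sal_Sal rats.

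On the log2 scale the order of the mean levels was Abx_Pb, Ctl, Sal_Sal, Abx_Sal and Sug. The linear means were 10871 ± 887 CPM (SD, n = 7) in Abx_Pb, 10029 ± 816 CPM (SD, n = 7) in Ctl, 9692 ± 543 CPM (SD, n = 7) in Sal_Sal, 9712 ± 1319 CPM (SD, n = 6) in Abx_Sal and 9056 ± 668 CPM (SD, n = 7) in Sug. Sal_Sal and Abx_Sal stand in the other order on the linear scale, and their log2 means were 13.24 ± 0.080 and 13.23 ± 0.19. No neighbours in the log2 order were further apart than the smaller of their SDs, and the widest step, between Abx_Pb and Ctl, was 0.116 against an SD of 0.117. This rested on single rats. The step from Abx_Pb to Ctl was 0.156 against an SD of 0.065 without Abx_Pb rat 7, and it also passed the smaller SD without Ctl rat 3 or 6. The step from Abx_Sal to Sug did so without Sug rat 2. Sal_Sal and Abx_Sal changed places without Sal_Sal rat 1 or 6 or Abx_Sal rat 2, 4 or 6, and in each of these cases Sal_Sal stood next to Sug and the step between them passed the smaller SD. Without Abx_Sal rat 6 that group also lay above Ctl, so the order of the middle groups is not fixed. In TPM, which divides each count by effective length and then by the library sum, the means were 8877 in Abx_Pb, 8399 in Ctl, 8258 in Abx_Sal, 8151 in Sal_Sal and 8026 in Sug. The groups at both ends were the same in TPM, also with any 1 rat left out, and the step from Abx_Pb to Ctl, 477.5, was there larger than the smaller SD of 446.0. With 1 rat left out this step no longer passed the smaller SD in 8 of 14 cases, which left out Abx_Pb rat 1, 2, 3, 4 or 5 or Ctl rat 2, 4 or 5. The step from Sal_Sal to Sug passed it without Sug rat 2 (219.0 against 211.9). Abx_Sal changed places in TPM with Sal_Sal without Abx_Sal rat 5 and with Ctl without Abx_Sal rat 6. Counting error was small beside the spread between rats, since the largest counting SD in any rat was 0.0040 on the log2 scale against group SDs of 0.080 to 0.19.

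The sugar comparison asked whether early-life sugar drinking changed hippocampal transcripts. The Mt-cyb level of Sug rats was 0.903 times that of Ctl rats as a ratio of geometric means. The difference fitted by edgeR, a count model run over all transcripts, was -0.14 on the log2 scale with a standard error of 0.058. No transcript of the 20865 tested passed an adjusted p of 0.05 in this comparison (0% called), where adjusted means corrected by the Benjamini-Hochberg method over all transcripts tested; 1542 had an unadjusted p under 0.05, limma voom called 0 and DESeq2 called 19. The edgeR count was 1 without Sug rat 6 or Ctl rat 7. Expressed as log2 (TPM + 1), the difference was -0.06 with a standard error of 0.088, and the median transcript stood at 0.06 on that scale. A single transcript of 204 bases held 39.7% to 47.1% of all TPM in these libraries, which sets the scale on which every TPM value stands.

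The transfer comparisons asked whether giving the Parabacteroides species changed hippocampal transcripts in rats without a sugar diet. Abx_Pb levels were 1.12 times those of Sal_Sal and 1.12 times those of Abx_Sal. The fitted differences were 0.16 with a standard error of 0.071 against Sal_Sal and 0.16 with a standard error of 0.074 against Abx_Sal, on the log2 scale. As log2 (TPM + 1) they were 0.12 (standard error 0.075) against Sal_Sal and 0.11 (standard error 0.078) against Abx_Sal, with the median transcript at -0.03 and -0.05. Both differences use the same 7 Abx_Pb rats, and the sugar difference uses other rats. In the comparison of Abx_Pb with both control groups combined, none of 20827 transcripts passed an adjusted p of 0.05 by edgeR (0% called), 1639 had an unadjusted p under 0.05, limma voom called 0 and DESeq2 called 19. Against each control group by itself edgeR also called 0 transcripts (0% called), limma voom called 0, and DESeq2 called 2 against Sal_Sal and 0 against Abx_Sal, with an unadjusted p under 0.05 by edgeR for 1358 and 1439.

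These differences were next set beside those of all transcripts, as a description. The difference between Sug and Ctl was larger in size than that of Mt-cyb for 33% of all transcripts tested, and for 14.3% of the 70 transcripts with a mean level of at least 1000 CPM. The corresponding shares were 30.3% and 7.14% for Abx_Pb against Sal_Sal. For Abx_Pb against Abx_Sal they were 32.4% and 12.9%.

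**Figure D2:**
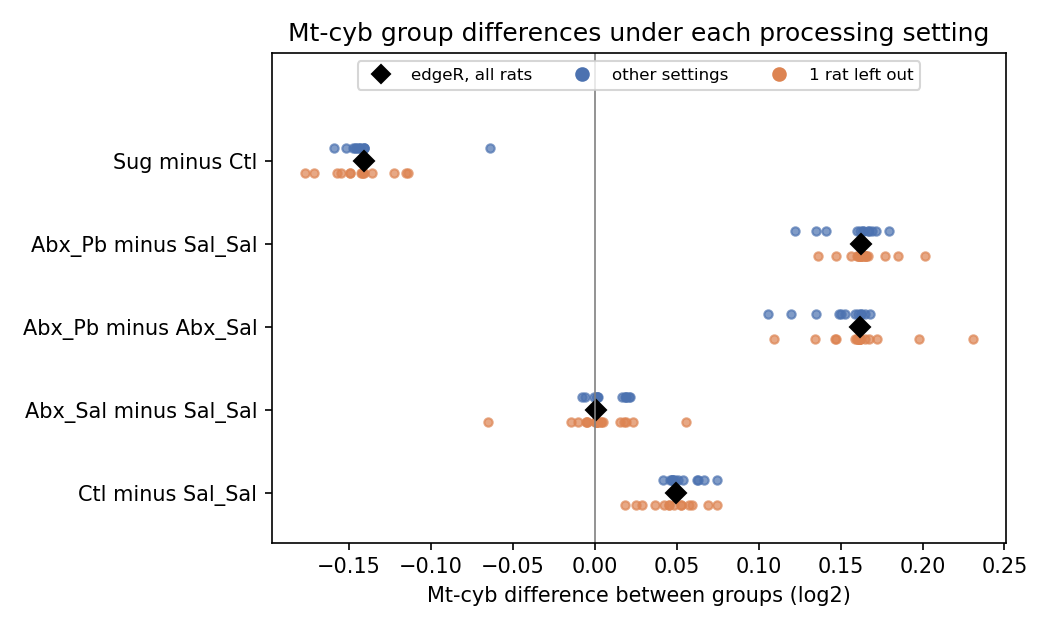
Differences in Mt-cyb between groups on the log2 scale, with the edgeR value over all rats as a diamond, other processing settings in blue and fits with 1 rat left out in orange. The Sug minus Ctl values lie between -0.18 and -0.06, both Abx_Pb differences lie between 0.11 and 0.23, and Abx_Sal minus Sal_Sal lies on both sides of 0.

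Antibiotics without the bacteria were compared with saline. Both groups served as controls in the choice of Mt-cyb, so their difference, which is also the gap between both Abx_Pb differences, is a description with no test. Abx_Sal minus Sal_Sal was 0.00091 on the log2 scale, with SDs of 0.19 and 0.080 within the groups. In this comparison none of 20827 transcripts was called by edgeR (0% called), 830 had an unadjusted p under 0.05, limma voom called 0 and DESeq2 called 2.

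The untreated rats of both experiments were also set side by side. The choice of Mt-cyb favoured a high level in Ctl and a low level in Sal_Sal, so this difference is a description with no test. Ctl exceeded Sal_Sal by 0.05 on the log2 scale, less than the SD of either group (0.12 and 0.080). Ctl and Sal_Sal differ in experiment, age at collection and gavage, which cannot be told apart. Of 20909 transcripts, 1 was called (0.00478% called), 1693 had an unadjusted p under 0.05 and DESeq2 called 24. The edgeR count was 2 without Sal_Sal rat 4 and 3 without Sal_Sal rat 5 or 6. It was 0 of 20882 in the rats with higher S numbers alone, and the test on log2 (TPM + 1) also called 0. The transcript that edgeR called over all rats was ENSRNOT00000068078.2, named after its value was seen. Its level was 52.8 ± 4.73 CPM in Ctl and 68.1 ± 2.67 CPM in Sal_Sal.

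The sample labels carry S numbers beside a second number. Up to S11 (10 rats) the S numbers rise with that second number, and from S12 on (24 rats) they start over at its low end and, except for S36, rise with it again. The rats were split there into a lower and a higher set, and what the S numbers stand for is not given in the sources used here. Every treatment group had rats in both. With the treatment group in the model, Mt-cyb was 0.03 higher on the log2 scale in the lower set (95% confidence interval -0.07 to 0.13), with an adjusted p of 0.932 by edgeR. In the same fit 125 of 20909 transcripts were called (0.598% called), and Mt-cyb was not among them, while limma voom called 148, DESeq2 called 332 and the test on log2 (TPM + 1) called 30. With a block for the replicate number of the samples, edgeR called 13. Within the higher set alone, the Mt-cyb difference was -0.15 for Sug against Ctl, with a standard error of 0.081. It was 0.13 (standard error 0.098) for Abx_Pb against Sal_Sal and 0.14 (standard error 0.093) for Abx_Pb against Abx_Sal. These rats are among those on which Mt-cyb was selected, so the values are a description.

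Depth and transcript length were then set against the Mt-cyb level with the group means removed. The Pearson correlation with log2 assigned reads was -0.276 over 34 rats (permutation p = 0.121, adjusted 0.242 over the 2 relations looked at), and Spearman's rho was -0.323 (permutation p = 0.0801, adjusted 0.160). The 2 rats farthest from the median depth were Ctl rats 3 and 5. Without them, Pearson's r was -0.401 (adjusted permutation p = 0.0517) and Spearman's rho was -0.481 (adjusted permutation p = 0.0217), so that the rank correlation passed 0.05 only there. Within the higher set of label numbers r was -0.216, and within the lower set of 10 rats it was -0.710 (permutation p = 0.166). Each group had only 1 to 3 rats in the lower set, so few rearrangements within groups exist and that p-value decides little. The length trend of a library, the slope of its log2 levels on log2 transcript length relative to the other libraries, had a correlation of -0.0563 with Mt-cyb (permutation p = 0.766) and a Spearman's rho of -0.0674 (permutation p = 0.717). The median length trend per doubling of length was -0.0015 in Abx_Pb, 0.0065 in Ctl, 0.0066 in Sug, 0.0051 in Sal_Sal and -0.0014 in Abx_Sal. Abx_Pb rat 8 had the lowest length trend of all, -0.0555, and its Mt-cyb level was 10902 CPM, inside the range of its group. Median assigned reads were 1.62e+07 in Abx_Pb, 1.79e+07 in Ctl, 1.62e+07 in Sug, 1.69e+07 in Sal_Sal and 1.63e+07 in Abx_Sal. The part of depth and length trend in the group differences was not tested.

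**Figure D3:**
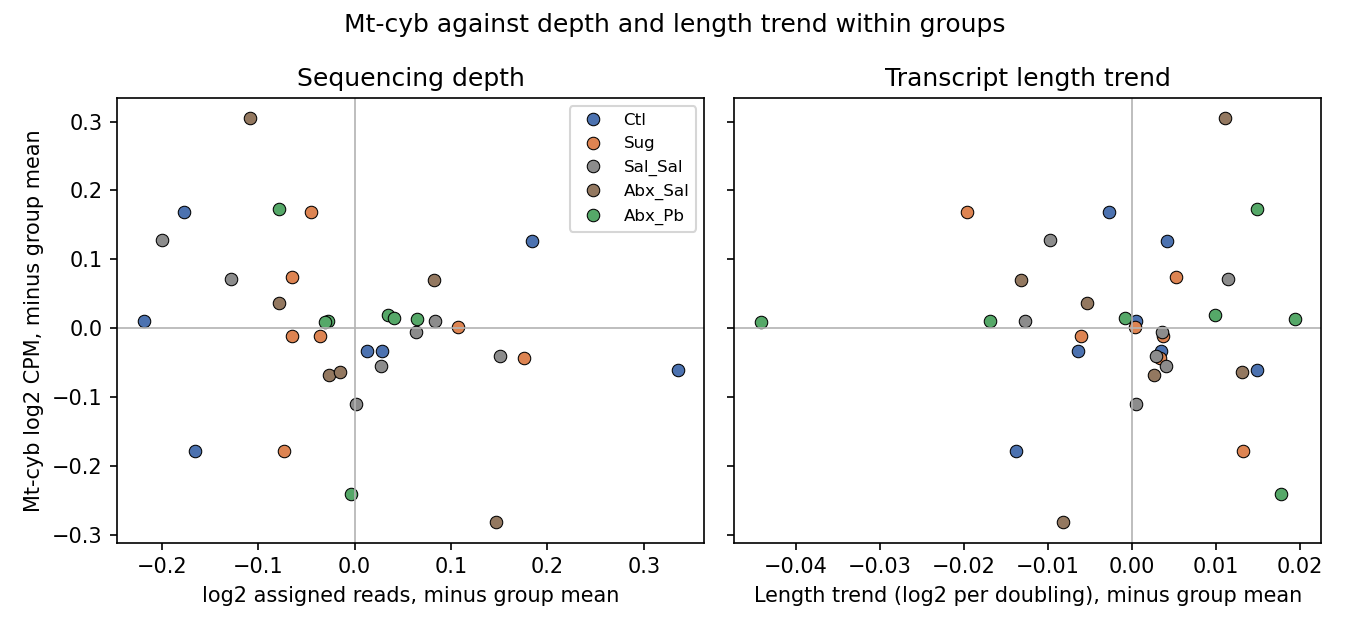
Mt-cyb in log2 CPM against log2 assigned reads and against the length trend, each minus its group mean, with 1 point per rat colored by group. The Pearson correlations are -0.276 with depth and -0.0563 with the length trend.

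Mt-cyb stands at row 13 of each table, and most of the 12 transcripts listed before it had differences of the same sign in the sugar and Parabacteroides comparisons. This was noticed after the values were seen, and these transcripts have no names here. Together the first 13 rows took 9.36% to 13.5% of the assigned reads of a library. In Sug rats they took 10.5% ± 0.454 of the reads (SD, n = 7) against 11.3% ± 0.752 in Ctl rats (SD, n = 7). In Abx_Pb rats they took 11.8% ± 1.14 (SD, n = 7) against 11.0% ± 0.808 in Sal_Sal rats (SD, n = 7) and 11.1% ± 1.18 in Abx_Sal rats (SD, n = 6). The order of the group means was the same as for the linear Mt-cyb means in CPM. On the log2 scale the Mt-cyb mean of Sal_Sal stood above that of Abx_Sal.

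Of the 12 other transcripts, 10 were lower and 2 were higher in Sug than in Ctl, with a median of -0.11 on the log2 scale, against 51.0% higher and a median of 0.0029 over all transcripts tested. In Abx_Pb against Sal_Sal 11 were higher and 1 was lower, with a median of 0.09, against 49.9% higher over all. In Abx_Pb against Abx_Sal 11 were again higher, with a median of 0.10, against 49.9% higher over all. The difference was larger in size than that of Mt-cyb in 2 of the 12 for sugar, in 0 for Abx_Pb against Sal_Sal and in 1 for Abx_Pb against Abx_Sal. In Abx_Sal against Sal_Sal 2 were higher and 10 were lower, with a median of -0.02, against 50.3% higher over all. In every rat these 13 values come from 1 library and share its scaling, so they are not separate evidence.

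**Figure D4:**
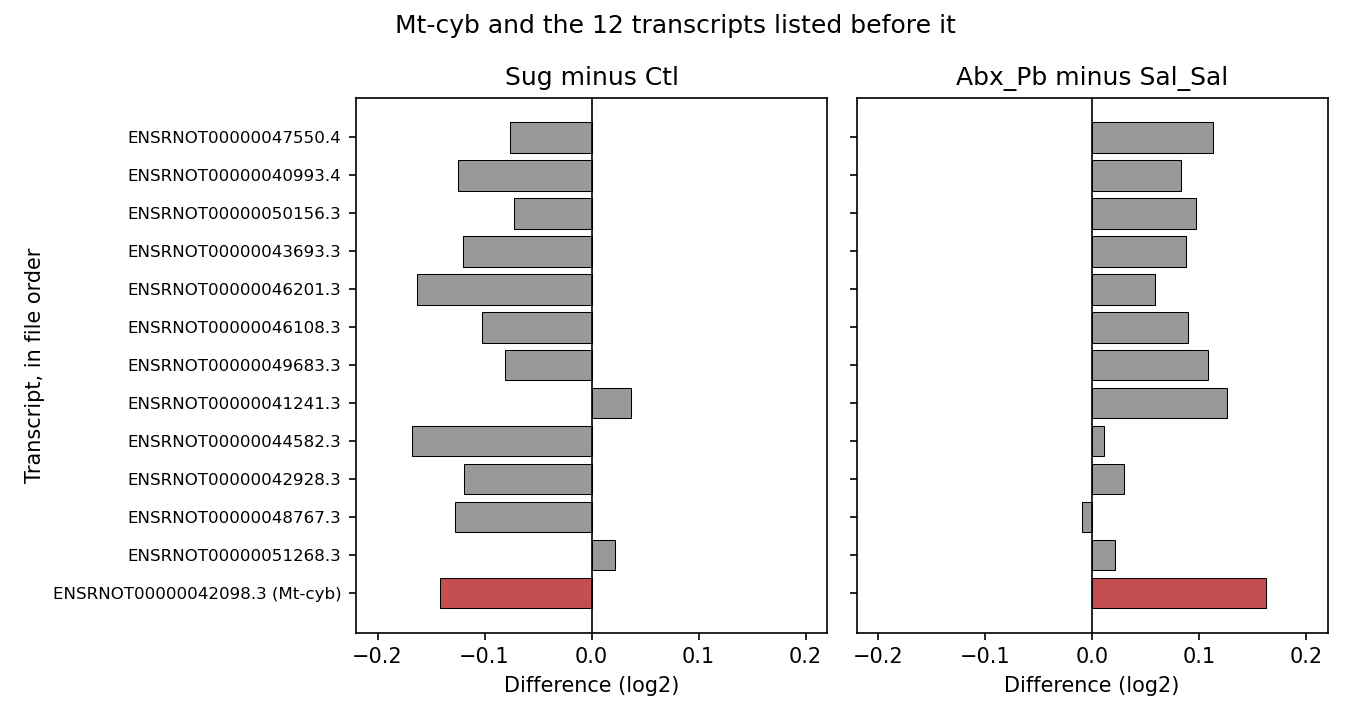
Differences on the log2 scale for Mt-cyb (red) and the 12 transcripts listed before it (grey), for Sug minus Ctl and for Abx_Pb minus Sal_Sal. Mt-cyb is at -0.14 and 0.16, 10 of the 12 others are below 0 in the first panel, and 11 are above 0 in the second.

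The share of Mt-cyb among these 13 transcripts had the highest mean in Abx_Pb, and over all rats the lowest in Sug. It was 9.21% ± 0.483 in Abx_Pb (SD, n = 7), 8.90% ± 0.452 in Ctl (SD, n = 7), 8.77% ± 0.301 in Abx_Sal (SD, n = 6), 8.73% ± 0.311 in Sal_Sal (SD, n = 7) and 8.66% ± 0.316 in Sug (SD, n = 7). The steps between neighbours were at most 0.310 percentage points, less than the smaller SD of each neighbouring pair. The lowest place rested on single rats, since the step from Sal_Sal to Sug passed the smaller SD without Sug rat 2 (0.171 against 0.166) and turned to -0.0079 without Sal_Sal rat 3, which put Sal_Sal lowest. Abx_Sal and Sal_Sal changed places without Abx_Sal rat 5 or Sal_Sal rat 5 or 7. Abx_Pb rat 8 stood at 8.17%, below every other rat of the 34, and the other 6 rats of its group stood at 9.19% or above. Without rat 8 the Abx_Pb share was 9.39% ± 0.156, and its step to Ctl was 0.484 percentage points, above the smaller SD.

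The transcripts whose levels followed Mt-cyb most closely from rat to rat were mainly those first rows. Likeness was measured as the Pearson correlation of log2 CPM over the 34 rats, among 11223 transcripts with a mean of at least 10 CPM, where the median correlation was -0.05, 5% lay below -0.47 and 5% lay above 0.46. The highest correlation, 0.883, belonged to ENSRNOT00000049683.3, followed by ENSRNOT00000040993.4 at 0.857, ENSRNOT00000050156.3 at 0.854 and ENSRNOT00000043693.3 at 0.848. All 4 are among the 12 listed before Mt-cyb, as were 7 of the 10 most alike. With the group means removed, 7 of the 10 remained among the 10 highest, and with library size scaling alone 9 did. The highest outside the first rows were ENSRNOT00000001054.4 at 0.745, ENSRNOT00000079593.1 at 0.740 and ENSRNOT00000023144.6 at 0.736. All 10 had the same signs as Mt-cyb for Sug minus Ctl and Abx_Pb minus Sal_Sal, which their likeness over the same rats partly fixes.

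At the other end, ENSRNOT00000091659.1 had the lowest correlation with Mt-cyb, -0.737. ENSRNOT00000019563.7 followed at -0.733, ENSRNOT00000017025.7 at -0.710, ENSRNOT00000068410.4 at -0.707 and ENSRNOT00000009870.6 at -0.684. Of these 5, 3 remained among the 5 lowest with the group means removed and 2 with library size scaling. The correlation of ENSRNOT00000017025.7 was -0.857 in the transfer experiment and -0.123 in the sugar experiment, whereas ENSRNOT00000091659.1 was at -0.729 and -0.702. These correlations share library, depth and scaling across all points and are given as a description.

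**Figure D5:**
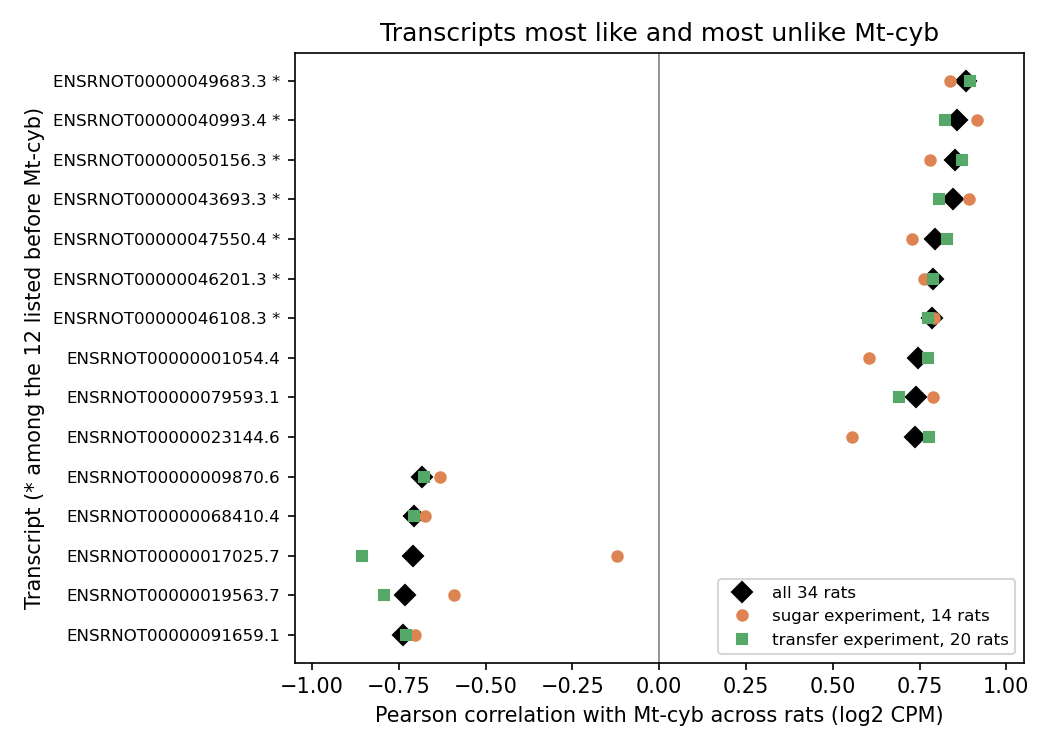
Pearson correlation with Mt-cyb in log2 CPM for the 10 most alike and the 5 most unlike transcripts, over all 34 rats (diamonds), the sugar experiment (circles) and the transfer experiment (squares). The 7 transcripts marked with a star stand between 0.785 and 0.883 over all rats, and ENSRNOT00000017025.7 is the one whose correlations in the experiments lie furthest apart.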

How the data were processed

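RNA of 34 hippocampus samples, which the authors took as punches of its dorsal part, was sequenced as single 75-base reads from mRNA libraries. The authors removed a control and a treatment sample of the transfer experiment as outliers. Replicate numbers of Abx_Pb and Abx_Sal are incomplete here, so the outlier flags and the fits with a rat left out may start from an already reduced set. The authors checked reads with FastQC, trimmed them with Trim Galore and quantified them with Salmon against the rat Rnor6 transcriptome; versions are not given in the sources used here. The deposited tables hold, per transcript, length, effective length, TPM and the estimated count of reads. The estimated counts were rounded and analyzed in R 4.3.3 with edgeR 4.0.16 (quasi-likelihood F-test, TMM scaling, Benjamini-Hochberg adjustment, threshold 0.05). Transcripts needed a count above 1 in over 50% of the rats fitted. Sug and Ctl were fitted together, as were the 3 groups of the transfer experiment; all 34 rats were fitted for Ctl against Sal_Sal and for label numbers. Log2 CPM used a prior count of 2, relations 100000 permutations within groups. Alternatives were DESeq2 1.42.0, limma 3.58.1, log2 (TPM + 1), other scalings and filters, a label number term, a replicate block and leaving out each rat. Added after seeing the data were the difference of mean log2 CPM, scaling without the first 13 rows and a length trend over transcripts of at least 1000 bases, and the order of the groups with each rat left out. Among 99 same-group pairs, no library repeated another. The transcript, the comparisons and the rule for named transcripts (10 most and 5 least correlated) were chosen with earlier results of these data known. Pathway and cell type lists could not be applied, since the tables used here pair no names with transcripts. The main edgeR fit was tested on simulated counts with changes larger than those of Mt-cyb, and the other steps were not tested in this way.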

Additional observations from a re-analysis of the deposited data

Results flagged for a closer look

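Abx_Pb rat 7 had a Mt-cyb level of 13.16 in log2 CPM, below the other 6 rats of its group, with a gap to the nearest of them of 0.602 of the group's range against a critical value of 0.568 for 7 samples. Without this rat, the difference from Sal_Sal was 0.20.

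Mt-cyb made up 8.17% of the reads of the first 13 transcripts in Abx_Pb rat 8, with a gap of 0.738 of the group's range. In this rat those 13 transcripts took 13.5% of all assigned reads, the highest of the 34 rats. In all, 20 groups of values were looked at, 2 were beyond the critical value, and chance gives about 1.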

How the results depend on the processing

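The difference between Sug and Ctl kept its sign in 26 of 26 alternatives, and both Abx_Pb differences did in 32 of 32, all on the rats by which Mt-cyb was chosen. The sign was part of that choice, so these counts are no separate support for it. The 32 also include fits without a rat of the control group outside the difference, which could hardly move it. With 1 rat left out the differences ranged from -0.18 (without Sug rat 2) to -0.11 (without Ctl rat 6) for sugar. They ranged from 0.14 (without Abx_Pb rat 1) to 0.20 (without Abx_Pb rat 7) against Sal_Sal, and from 0.11 (without Abx_Sal rat 6) to 0.23 (without Abx_Sal rat 5) against Abx_Sal. Abx_Sal minus Sal_Sal turned below 0 with limma voom (-0.0077), with the higher label numbers alone (-0.00042) and as a mean of log2 CPM (-0.0060), and ranged from -0.065 to 0.056 with 1 rat left out. Ctl minus Sal_Sal ranged from 0.02 to 0.07 with 1 rat left out. Lower minus higher label numbers was -0.016 as log2 (TPM + 1), and the correlation with the length trend within the lower set was 0.411. The cause was not tested.

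DESeq2 called 19 transcripts for Sug against Ctl, 19 for Abx_Pb against the combined controls, 2 for Abx_Sal against Sal_Sal, 24 for Ctl against Sal_Sal and 332 for the label numbers. For the label numbers limma voom called 148 and the replicate block 13. Samples with the same number did not vary together (correlations of -0.05 to 0.06 in the sugar experiment and -0.11 to 0.09 in the transfer experiment). With the replicate block the Mt-cyb difference was -0.14 (standard error 0.068) for Sug minus Ctl and 0.14 (standard error 0.075) for Abx_Pb minus Sal_Sal. It was 0.12 (standard error 0.079) for Abx_Pb minus Abx_Sal and 0.02 (standard error 0.075) for Abx_Sal minus Sal_Sal.

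The largest counting SD of Mt-cyb was 0.0040 on the log2 scale, against SDs of 0.080 to 0.19 between rats of a group. The part of depth in the group differences was not tested.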
